A study of Mus musculus with 1087 samples.

Results

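The genes described here encode Polycomb repressive complex 2 (PRC2), and they were followed in single cells sorted from the region of the mouse embryo where the first blood stem cells form. The 8 genes, Ezh1, Ezh2, Eed, Suz12, Jarid2, Mtf2, Phf19 and Rbbp7, were taken by name from the 46078 genes of the deposited count table, and all 8 were found. PRC2 places methyl groups on lysine 27 of histone H3, the mark of genes held in the silent state. EZH1 and EZH2 are alternative catalytic subunits, EED and SUZ12 are needed for activity, and RBBP7 is a histone-binding subunit shared with other chromatin complexes. JARID2, MTF2 and PHF19 are accessory subunits that help bring the complex to CpG-rich DNA. In dividing progenitor cells EZH2 is generally the main enzyme, and EZH1 is known for its place in resting and mature cells and in blood stem cells. EZH1 is also known to hold blood potential in check in the early embryo.

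Each of the 1087 samples was 1 cell from an AGM (aorta-gonad-mesonephros) region, which here included the trunk parts of the vitelline and umbilical arteries. The cells were labelled as intra-aortic hematopoietic cluster cells, the round cells that bud from the aortic wall, and all sample names called them high for Kit. All embryos were Gata2V/+, with 1 allele of Gata2, a transcription factor of blood stem cells, linked to the Venus fluorescent protein, from C57BL/6HsdJOla wild-type mothers and Gata2V/V fathers. There were 87 cells of E10 G2VInt, 130 of E11 G2VInt, 279 of E11.5 G2VInt, 472 of E11.5 G2VLo and 119 of E11.5 CD27+. G2VInt and G2VLo are the labels' names of gates on Venus fluorescence, and CD27 is a surface protein of blood progenitors. The Venus level of the CD27+ cells was not stated. The labels placed each cell other than the CD27+ ones in a class (named EC, HC1, HC2 and, for the smaller ones, U1 and U2) and all cells in a numbered cluster. No embryo, litter or sort was named, so each of the 5 groups counted as 1 sample, its cells were not replicates, and no test was run. Classes and clusters were formed by the authors on the expression of these cells, so differences between them are descriptions.

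Levels are given as CPM, the usual scaling of a gene's reads by the total reads of its set. Cells held 117369 to 6999570 reads each, with a median of 818924. Median depth was 1892779 to 2212898 reads in the 3 G2VInt groups, 539090 in G2VLo and 621544 in CD27+ cells. The median share of mitochondrial reads was 2.04 to 2.93% in the G2VInt groups, 6.41% in G2VLo and 8.29% in CD27+ cells. Gate, depth and mitochondrial share moved together at E11.5, and with 1 sample per gate they cannot be told apart. The class names were checked on marker genes. The 10 listed genes of endothelium, the vessel lining, summed to 7944 to 10492 CPM in EC cells, and 10 blood genes such as Ptprc and Runx1 summed to 78.4 to 133 CPM there. The blood genes summed to 3389 to 4072 CPM in HC1 cells, and 10 macrophage genes summed to 15712 CPM in U1 cells against 54.9 CPM in HC1 cells of the same gate. The endothelial genes summed to 2143 to 3391 CPM in HC1 cells, below EC but far from absent. HC2 cells held 398 to 1105 CPM of erythroid and 572 to 2043 CPM of mast cell genes against 100.0 to 166 and 359 to 443 CPM in HC1.

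The start of 3 of the 8 genes carried a match to the binding sequence of E2F factors, which switch on genes of DNA replication. This is shown because Ezh2 and Eed are textbook E2F targets and because the S phase genes are set beside the PRC2 genes below. RefSeq promoter windows (GRCm38.p6, 250 bases before to 50 after the start, 300 bases) were searched on both strands for TTTCCCGC, TTTGGCGC, TTTCGCGC and TTTGCCGC. At least 1 of these forms was present in 744 of 32851 windows, or 2.26%. The 8 genes had 10 windows, with 2 each for Jarid2 and Mtf2. Every form contains CG, and the matched windows were richer in CpG than the median window. The share per window is thus no like background for the count of genes. Ezh2 (chr6:47594981-47595280, minus strand) held TTTGGCGC from base 254, Suz12 (chr11:79992856-79993155, plus strand) held TTTCCCGC from base 32, and Phf19 (chr2:34913927-34914226, minus strand) held TTTCCCGC on the other strand from base 43. Bases are counted from 1 at the 5′ end of the window. No form was in the windows of Ezh1 (chr11:101226414-101226713, minus strand), Eed, Jarid2, Mtf2 or Rbbp7. The windows below are written 5′ to 3′ on the strand of the gene, with the match in capitals, and Ezh1 is given as the window without one. A match is a description of letters and no measure of binding.
Ezh2: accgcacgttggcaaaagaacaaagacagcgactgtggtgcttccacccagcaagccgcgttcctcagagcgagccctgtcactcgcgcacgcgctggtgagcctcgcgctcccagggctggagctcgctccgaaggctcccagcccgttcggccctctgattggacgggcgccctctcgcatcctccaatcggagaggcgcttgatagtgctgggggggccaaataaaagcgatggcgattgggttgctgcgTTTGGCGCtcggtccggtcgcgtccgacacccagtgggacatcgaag
Suz12: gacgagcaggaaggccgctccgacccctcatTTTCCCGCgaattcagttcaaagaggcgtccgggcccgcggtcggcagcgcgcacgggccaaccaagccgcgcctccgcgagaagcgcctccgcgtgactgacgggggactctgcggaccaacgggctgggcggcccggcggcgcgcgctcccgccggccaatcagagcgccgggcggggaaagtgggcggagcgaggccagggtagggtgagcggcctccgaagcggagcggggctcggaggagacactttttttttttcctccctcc
Phf19: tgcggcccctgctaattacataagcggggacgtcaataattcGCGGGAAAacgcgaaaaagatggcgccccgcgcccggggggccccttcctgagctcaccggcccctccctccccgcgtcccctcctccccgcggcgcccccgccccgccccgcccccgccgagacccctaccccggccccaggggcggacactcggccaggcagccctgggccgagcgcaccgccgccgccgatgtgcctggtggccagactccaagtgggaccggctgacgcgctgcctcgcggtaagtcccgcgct
Ezh1: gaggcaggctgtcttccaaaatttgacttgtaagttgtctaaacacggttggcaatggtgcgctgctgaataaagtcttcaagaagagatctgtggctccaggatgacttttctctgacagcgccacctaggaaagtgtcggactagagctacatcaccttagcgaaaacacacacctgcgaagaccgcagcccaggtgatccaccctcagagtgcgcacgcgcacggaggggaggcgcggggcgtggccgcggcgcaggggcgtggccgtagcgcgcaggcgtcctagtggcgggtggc
All 4 windows were rich in CpG, with 23 in Ezh1, 31 in Ezh2, 41 in Suz12 and 38 in Phf19 against a median of 7 over all windows.

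The genes lie apart in the genome, with only Ezh1 and Suz12 on a shared chromosome. On GRCm38 (GENCODE M21 annotation), Ezh1 (ENSMUSG00000006920) spans chr11:101191115-101226463 on the minus strand and Ezh2 (ENSMUSG00000029687) spans chr6:47530139-47595341 on the minus strand. Eed (ENSMUSG00000030619) lies at chr7:89954654-89980983, minus, and Suz12 (ENSMUSG00000017548) at chr11:79993106-80034123, plus. Jarid2 (ENSMUSG00000038518) lies at chr13:44729474-44921643, plus, and Mtf2 (ENSMUSG00000029267) at chr5:108065674-108109004, plus. Phf19 (ENSMUSG00000026873) lies at chr2:34893757-34914026, minus, and Rbbp7 (ENSMUSG00000031353) at chrX:162760402-162779092, plus. Exons of Ezh2, Eed, Suz12, Mtf2 and Rbbp7 overlap an exon of a gene on the opposite strand (Gm26625, E230029C05Rik, Gm26563, Tmed5 and Txlng in that order). The strand setting of the counting was not given in the sources used here, so reads of such pairs may not have been told apart.

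Rbbp7 was by far the most abundant PRC2 transcript and Phf19 the least. Summed over all 1087 cells and divided by exon length, the level was 120.9 CPM per kb for Rbbp7, 30.9 for Mtf2, 18.6 for Ezh2, 16.0 for Eed, 12.4 for Jarid2, 5.91 for Suz12, 4.90 for Ezh1 and 2.11 for Phf19. The order of detection was similar but not the same. With each cell thinned at random to 100000 reads, the shallowest depth that every cell reached, at least 1 read was found in 99.7% of cells for Rbbp7, 95.4% for Mtf2, 91.6% for Ezh2, 89.9% for Jarid2, 83.1% for Eed, 66.5% for Suz12, 48.2% for Ezh1 and 19.4% for Phf19. Ezh1 and Phf19 were thus patchy from cell to cell, and many cells had 0 reads of them. Intervals below are exact 95% intervals of counting error. They are narrow because cells were read deeply, they leave out the far wider spread between cells, and no molecular identifiers were used.

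**Figure D1:**
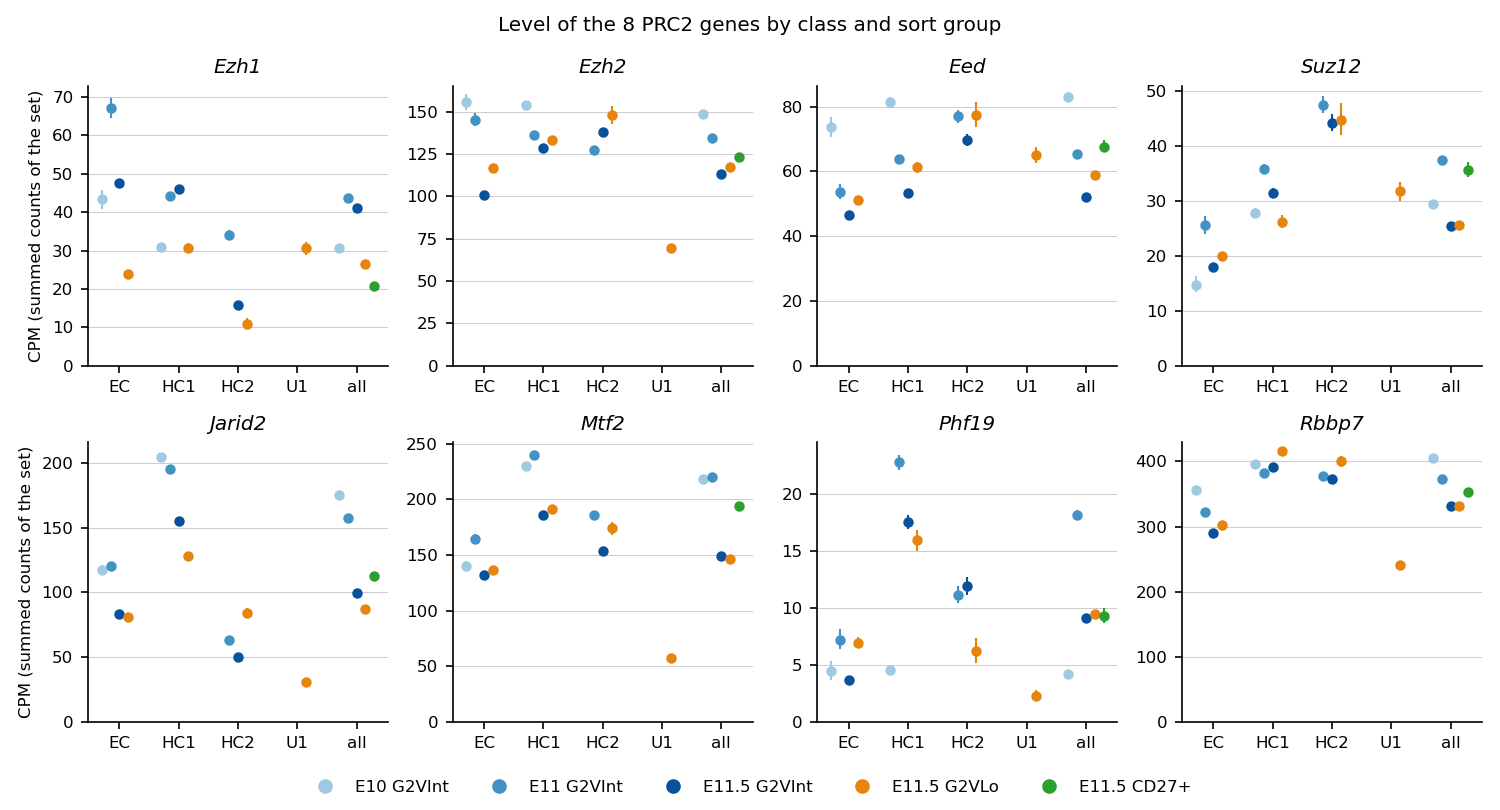
CPM of each PRC2 gene (linear axes from 0, with a scale of its own per gene) in each class with at least 10 cells and in all cells of each of the 5 groups, as counts summed over cells, with exact 95% Poisson intervals (counting error only). Rbbp7 lies between 241 and 416 CPM in every set shown, Ezh1 reaches its lowest values in HC2, and Jarid2, Mtf2 and Phf19 reach theirs in U1.

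Among the EC, HC1 and HC2 sets of a group, Ezh1 was found in the largest share of EC cells and the smallest share of HC2 cells. In EC cells the lowest, median and highest per-cell CPM were 0, 29.5 and 115 at E10, 0.487, 35.8 and 395 at E11, and 0, 35.6 and 278 at E11.5 G2VInt. Per-cell medians were far lower in HC1 cells, at 2.56 CPM at E10 (highest 175.5), 7.42 at E11 (highest 353) and 6.97 at E11.5 G2VInt (highest 256), each with a lowest value of 0. The EC and HC1 cells overlapped over nearly their whole ranges, so the classes differed in how many cells were low and not in separate levels. Summed Ezh1 was closer, at 43.3, 67.1 and 47.5 CPM in EC and 31.0, 44.3 and 45.9 CPM in HC1 cells of the G2VInt groups. Within HC1, cluster 7 of the clustering of all cells (described below) held 54.8, 62.7 and 63.2 CPM. This was above EC at E10 and E11.5 and below it at E11. In HC2 cells the median was 1.51 CPM at E11 and 0 at E11.5 in both gates, with highest values of 157, 210.2 and 85.3 CPM. The share of thinned cells with an Ezh1 read was 73.3 to 78.6% in EC cells of the 3 G2VInt groups, 47.6 to 53.9% in HC1 cells and 20.5 to 41.7% in HC2 cells. In G2VLo it was 53.8% in EC, 36.2% in HC1, 25.0% in HC2 and 37.7% in U1 cells.

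Ezh2 was more even. Its per-cell median was 144 CPM in EC and 143 CPM in HC1 cells at E10, 147 and 126 CPM at E11, 95.8 and 118 CPM at E11.5 G2VInt, and 99.8 and 115 CPM at G2VLo. HC2 cells were in the same range, with medians of 109.8, 121 and 142 CPM at E11, E11.5 G2VInt and E11.5 G2VLo. The macrophage-marked U1 cells stood lower, with a lowest, median and highest Ezh2 of 0, 41.2 and 268 CPM. Their range lay within that of HC1 cells of the gate, which ran from 0 to 605 CPM.

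The balance of the catalytic subunits was tilted to Ezh2 in every set. Over all cells, Ezh1 made up 22.7% of the reads of both genes (50278 Ezh1 and 171213 Ezh2 reads, interval 22.5 to 22.9%), an Ezh1 to Ezh2 ratio of 0.294 in reads and 0.264 per kb of exon. The share in EC cells was 21.7% at E10, 31.6% at E11, 32.0% at E11.5 G2VInt and 17.1% at E11.5 G2VLo. In HC1 cells it was 16.8, 24.5, 26.3 and 18.7% in the same order. At E11 1 EC cell held 35.4% of the Ezh1 reads of its set, and without the cell with most Ezh1 reads in each set the share was 24.4% in EC and 22.9% in HC1 cells. Without such a cell it was 18.8 and 15.5% at E10 and 31.0 and 25.2% at E11.5 G2VInt. In G2VLo the EC share was the lower, and the intervals (16.5 to 17.7% and 18.0 to 19.4%) lay close together. HC2 cells had the lowest share at E11.5, 10.2% in G2VInt (interval 9.66 to 10.8%) and 6.89% in G2VLo (6.05 to 7.82%), against 21.02% at E11. A single cell held 39.7% of the Ezh1 reads of the E11.5 G2VInt HC2 cells, and without it the read ratio of that set fell from 0.114 to 0.0712. U1 cells stood at 30.6%, with Ezh1 at 30.6 CPM, the same as HC1 cells of the gate, and Ezh2 at 69.3 CPM against 133.

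Counted by cell, 44.8% of the 1087 thinned cells had a read of both genes, 46.8% of Ezh2 only, 3.40% of Ezh1 only and 4.97% of neither. Cells with both were most frequent among EC cells of the G2VInt groups (78.6, 73.3 and 73.8%) and least frequent in E11.5 G2VInt HC2 cells (20.5%). Cells with Ezh1 alone were few in every class, at most 5 of 77 U1 cells (6.49%).

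**Figure D2:**
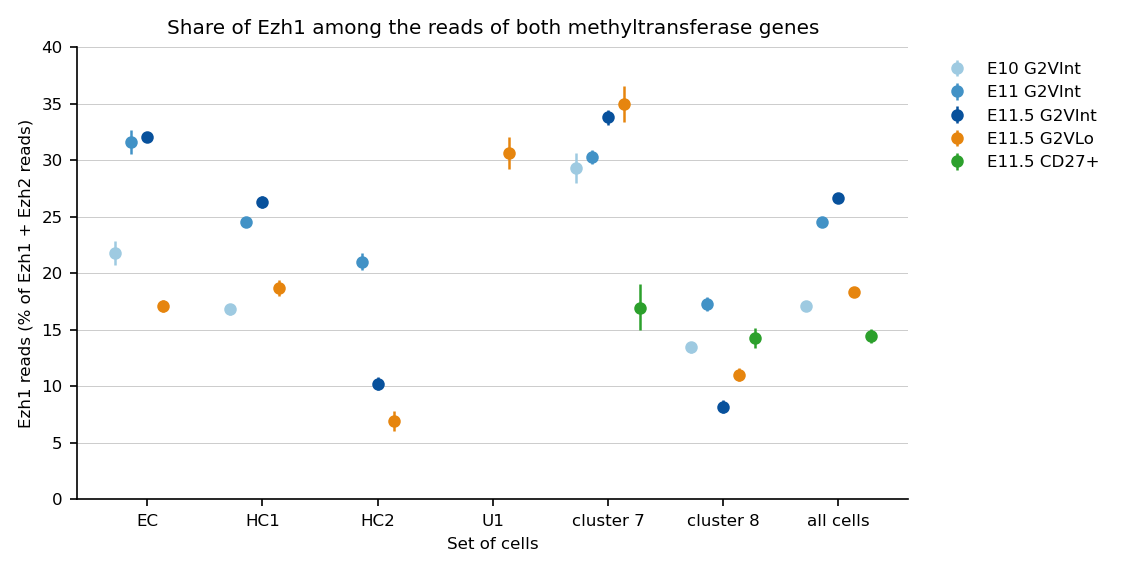
Ezh1 reads as a percent of Ezh1 and Ezh2 reads by class, by clusters 7 and 8 and over all cells within each group, with exact 95% binomial intervals (counting error only). The share is 10.2% in HC2 and 32.0% in EC cells of E11.5 G2VInt, and cluster 7 lies above cluster 8 in each of the 4 Venus-gated groups.

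For comparisons, the log2 ratio of CPM was centred on the median of all measured genes (at least 10 CPM and a read in at least 5% of thinned cells in the same set), and a difference was counted from 1.5-fold, or 0.585 on the log2 scale. A gene under 10 CPM in 1 set entered through the other set alone. The filter then favoured a difference towards that other set, as often for Phf19. The first comparison asks how PRC2 genes differ between the endothelial-marked EC cells and HC1 cells, which held blood and endothelial transcripts. At E10, 3 of 7 measured PRC2 genes differed against 46.3% of all measured genes, at E11 2 of 8 against 45.5%, at E11.5 G2VInt 3 of 8 against 38.5% and at E11.5 G2VLo 1 of 8 against 38.5%. PRC2 genes thus did not differ more often than genes did in general. The median centred log2 ratio of the members was -0.02, 0.18, 0.27 and 0.23 in that order.

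Of the core, Eed, Rbbp7 and Ezh2 stayed within 1.5-fold between HC1 and EC in all 4 groups. Rbbp7 was 290.4 to 355.5 CPM in EC and 382 to 416 CPM in HC1 cells over E10 to E11.5, with centred log2 ratios of -0.01, 0.06, 0.24 and 0.27. Suz12 was higher in HC1 at E10 (27.8 against 14.7 CPM, centred log2 ratio 0.75) and at E11.5 G2VInt (31.4 against 17.9 CPM, 0.62). It was within the fold at E11 (0.30) and in G2VLo (0.20), where the per-cell medians of HC1 and EC were 11.7 and 14.9 CPM. The cells of each set were also split at the median library number of the sample names, and at E10 the Suz12 ratio was 0.42, within the fold, with the upper numbers alone.

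Jarid2, Mtf2 and Phf19, the accessory subunits, had positive centred ratios of HC1 over EC wherever they were measured, as had Suz12. Jarid2 in HC1 cells had a lowest, median and highest CPM of 0.681, 174 and 681 at E10 and 0, 139 and 609 at E11.5 G2VInt, against 19.2, 92.6 and 244 and 1.31, 73.1 and 330 in EC cells. The ranges overlapped and the HC1 range reached higher. The centred log2 ratio of Jarid2 was 0.64, 0.52, 0.70 and 0.48 over the 4 groups, past the fold at E10 and E11.5 G2VInt. For Mtf2 it was 0.54, 0.36, 0.31 and 0.29, with per-cell medians of 222, 214, 173 and 180.4 CPM in HC1 against 141, 149.9, 123 and 125 CPM in EC. Phf19 was past the fold in each group where it was measured, with ratios of 1.47 at E11, 2.06 at E11.5 G2VInt and 1.01 at G2VLo. In EC cells Phf19 was under 10 CPM each time. It passed the filter through HC1 alone, so these values do not support a direction. The Phf19 median was 0 CPM in all those sets, and the share of thinned cells with a read was 28.6 against 20%, 30.4 against 11.48% and 23.9 against 17.4%.

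Ezh1 went the other way in the younger groups. The centred log2 ratio of HC1 over EC was -0.65 at E10, -0.79 at E11, -0.24 at E11.5 G2VInt and 0.16 at G2VLo. The first 2 values rest on 14 and 15 EC cells, and 1 of the E11 EC cells held 35.4% of their Ezh1 reads. Without the cell with the most reads on each side the ratios were -0.52 and -0.35, within the fold, and at E11 the cells of the lower library numbers gave 0.36. Of the S phase genes, 9 of 41 were higher in HC1 at E10, 3 higher and 6 lower at E11, 6 higher at E11.5 G2VInt and 8 higher at G2VLo, beside which the Ezh2 ratio was -0.19, -0.28, 0.17 and 0.00. Of 53 G2 and M phase genes, 21, 25 and 4 were higher in HC1 in the G2VInt groups of E10, E11 and E11.5, and 21 were lower at G2VLo. The part of cell cycle differences in these values was not tested.

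**Figure D3:**
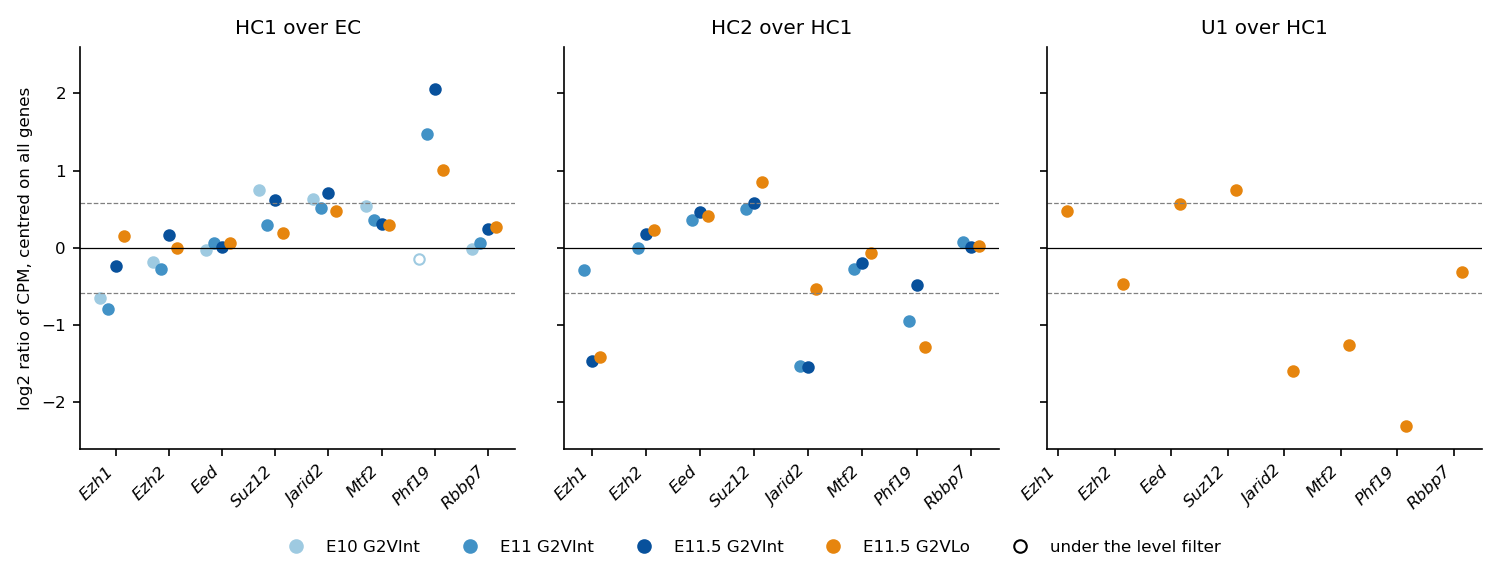
Centred log2 ratio of CPM of each PRC2 gene for HC1 over EC, HC2 over HC1 and U1 over HC1 in each group, with 1.5-fold as dashed lines and an open circle for a gene under the filter on low values. Jarid2 is above 0 for HC1 over EC and below 0 for HC2 over HC1 in every group, and Ezh1 is at -1.47 and -1.41 for HC2 over HC1 at E11.5.

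HC2 was next compared with HC1, the main blood class, and Jarid2 had the lowest ratio of the members at E11 and E11.5 G2VInt. The erythroid and mast cell transcripts of HC2 were unevenly spread at G2VLo, where the per-cell median of the summed erythroid genes was 81.3 CPM. There 23 of the 36 HC2 cells were in cluster 9 of the clustering without CD27+ cells, which held 50.3 CPM of erythroid and 540 CPM of mast cell genes. In HC2 cells the lowest, median and highest Jarid2 CPM were 0, 39.4 and 389 at E11, 0, 39.1 and 263 at E11.5 G2VInt, and 0, 61.4 and 295 at G2VLo. The HC1 medians were 175, 139 and 96.4 CPM, above those of HC2, with overlapping ranges. The centred log2 ratio was -1.53, -1.55 and -0.53, the last within the fold. At E11 it ran from -1.64 to -1.43 and at E11.5 G2VInt from -1.78 to -1.21 over the alternative settings.

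Ezh1 was lower in HC2 at E11.5, with centred log2 ratios of -1.47 (15.7 against 45.9 CPM) in G2VInt and -1.41 (11.0 against 30.6 CPM) in G2VLo, and was within the fold at E11 (-0.29). Phf19 was lower at E11 (-0.94) and at G2VLo (-1.29) and within the fold at E11.5 G2VInt (-0.47). Suz12 leaned the other way with 0.50, 0.58 and 0.85, the last past the fold, and Eed with 0.36, 0.47 and 0.42. Ezh2 (-0.00, 0.18 and 0.23), Mtf2 (-0.27, -0.19 and -0.06) and Rbbp7 (0.08, 0.02 and 0.02) differed little. In all, 2 of 8 members differed at E11 against 41.5% of measured genes, 2 of 8 at E11.5 G2VInt against 39.3% and 3 of 8 at G2VLo against 31.0%, with member medians of -0.14, -0.09 and -0.02. Beside these, 7, 8 and 6 erythroid genes were higher in HC2 of 8, 9 and 7 measured, and 27 and 14 of 53 G2 and M phase genes were lower at E11 and E11.5 G2VInt where 25 were higher at G2VLo. Their part in the member ratios was not tested. Erythroid genes that passed the filter through HC2 alone were favoured to count as higher there, so their counts describe HC2 and do not support a direction.

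U1 cells of the G2VLo gate were compared with HC1 cells of the gate, and 4 of 8 members differed against 56.4% of measured genes. All 3 accessory subunits were lower. Jarid2 was 30.6 against 128 CPM (centred log2 ratio -1.59, per-cell median 10.4 against 96.4), Mtf2 57.7 against 192 CPM (-1.26, median 40.7 against 180.4), and Phf19 2.31 against 15.9 CPM (-2.31). Suz12 was past the fold in the other direction (31.7 against 26.2 CPM, 0.75), a value that depends on centring, since the median measured gene was at -0.48 and the ratio without centring was 0.28. Ezh1 (0.47), Eed (0.56), Ezh2 (-0.47) and Rbbp7 (-0.31) stayed within the fold. In U1 cells 11 S phase genes were lower and 3 higher of 41, and 34 of 53 G2 and M phase genes were higher and 2 lower. The part of these in the member ratios was not tested. All 10 macrophage genes were higher in U1, and none was at 0 in either set. Most of them passed the filter through U1 alone, so this count describes U1 and does not support a direction.

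Within the blood cells, the clustering of all cells gave 2 large clusters, 7 and 8, and Ezh1 was higher in cluster 7 in the Venus-gated groups. Outside the CD27+ group, all 176 cells of cluster 7 and 220 of the 249 of cluster 8 were HC1, and the other 29 were HC2. This comparison was chosen after the values were seen. Per-cell Ezh1 had a lowest, median and highest value of 0, 46.6 and 163 CPM in cluster 7 and 0, 0.38 and 175 in cluster 8 at E10. At E11 these were 0, 17.1 and 214 and 0, 1.09 and 353, at E11.5 G2VInt 0, 32.7 and 256 and 0, 1.85 and 88.2, and at G2VLo 0, 4.04 and 682 and 0, 0 and 173. The ranges overlapped in each group, and both clusters held cells at 0. No Ezh1 read was found in 1 of 11, 11 of 45, 13 of 63 and 27 of 57 cells of cluster 7. In cluster 8 this was so in 27 of 55, 13 of 34, 14 of 37 and 78 of 123 cells. Summed Ezh1 was 54.8 against 24.3 CPM at E10, 62.7 against 26.1 at E11, 63.2 against 12.4 at E11.5 G2VInt and 50.8 against 18.98 at G2VLo. The centred log2 ratios of cluster 7 over cluster 8 were 1.18, 1.26, 2.36 and 1.42. Over the alternative settings they stayed within 1.04 to 1.32, 0.70 to 1.70, 2.12 to 2.47 and 1.02 to 1.58. These settings all kept the clustering of all cells. In the clustering without CD27+ cells, cluster 7 held 27 cells at E10 against 11 here, and the ratios were not taken with it. In CD27+ cells Ezh1 was 20.7 CPM in the 16 cells of cluster 7 and 21.4 CPM in the 69 of cluster 8 (ratio -0.04). There 1 cell held 48.7% of the cluster 7 reads, and without the cell with most Ezh1 reads on each side the ratio was -0.80.

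**Figure D4:**
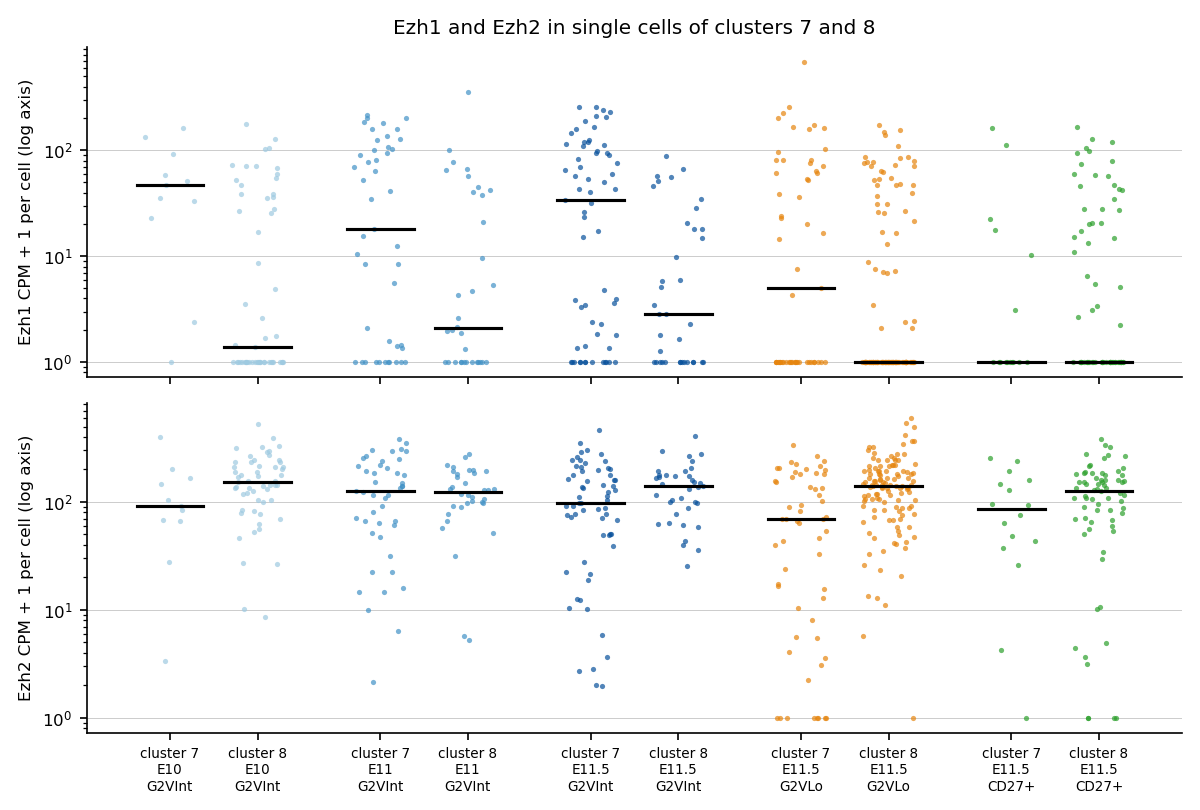
Per-cell Ezh1 and Ezh2 CPM of clusters 7 and 8 in each group, plotted as CPM + 1 on log axes, 1 point per cell with the median as a line and 0 CPM at the bottom of the points. Cells of both clusters lie at 0 for Ezh1, and the Ezh1 medians of cluster 8 are 0 to 1.85 CPM. The Ezh2 medians of cluster 8 are 124 to 152 CPM.

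The Ezh1 share of catalytic subunit reads followed. It was 29.3, 30.3, 33.8 and 35.0% in cluster 7 and 13.4, 17.3, 8.15 and 11.0% in cluster 8 of the 4 Venus-gated groups, and 16.9% (interval 14.9 to 19.01%) and 14.2% (13.4 to 15.1%) in CD27+ cells. More Ezh1 than Ezh2 reads were found in 3 of 11, 8 of 45, 19 of 63 and 16 of 57 cells of cluster 7, and in 2 of 55, 5 of 34, 1 of 37 and 6 of 123 cells of cluster 8. In CD27+ cells these were 2 of 16 and 4 of 69.

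Among the other members, Suz12 was lower in cluster 7 at E10 (11.8 against 34.1 CPM, -1.53), E11 (22.9 against 51.3, -1.17) and G2VLo (17.0 against 34.2, -1.01) and equal within the fold at E11.5 G2VInt (30.0 against 31.0, -0.03). In CD27+ cells it was 24.8 against 41.7 CPM (-0.74), and -0.27 with only the upper library numbers. Ezh2 was lower in cluster 7 at G2VLo (94.5 against 154 CPM, -0.70) and within the fold elsewhere (-0.24, 0.20, -0.16 and -0.33). Eed was past the fold at E11 alone (49.1 against 79.9 CPM, -0.71), and Phf19 was lower at E11 (-1.56), G2VLo (-0.77, but 0.32 with only the lower library numbers) and in CD27+ cells (-1.42). Jarid2 had positive ratios in each group (0.43, 0.41, 0.29, 0.09 and 0.75), past the fold in CD27+ cells (179 against 107 CPM).

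The members differing between clusters 7 and 8 numbered 2 of 7 at E10 against 26.7% of measured genes, 4 of 8 at E11 against 23.9%, 1 of 8 at E11.5 G2VInt against 21.7%, 4 of 8 at G2VLo against 21.0% and 3 of 8 in CD27+ cells against 29.2%. Cluster 7 also held more endothelial transcripts. Their 10 genes summed to 3260 to 4256 CPM in cluster 7 and 1687 to 2126 CPM in cluster 8, and 9 of 9 measured were higher at E10 and 8, 9, 7 and 9 of 10 in the other groups. In CD27+ cells the sums were 3260 and 1741 CPM. Myeloid genes were lower in cluster 7 (349 to 655 against 749 to 1037 CPM). At G2VLo 27 of 41 S phase genes were lower in cluster 7 (list median -0.63), beside the lower Ezh2, and the median depth was 394342 against 500805 reads. In the other 4 groups 1 to 7 S phase genes were lower, with 1 higher at E11 and 3 higher in CD27+ cells (list median 0.12). Of the G2 and M phase genes, 4 were higher at E10, none differed at E11, 13 were lower at E11.5 G2VInt, 8 were lower and 3 higher at G2VLo, and 5 were lower and 4 higher in CD27+ cells. The part of these in the Ezh1 and Ezh2 values was not tested.

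**Figure D5:**
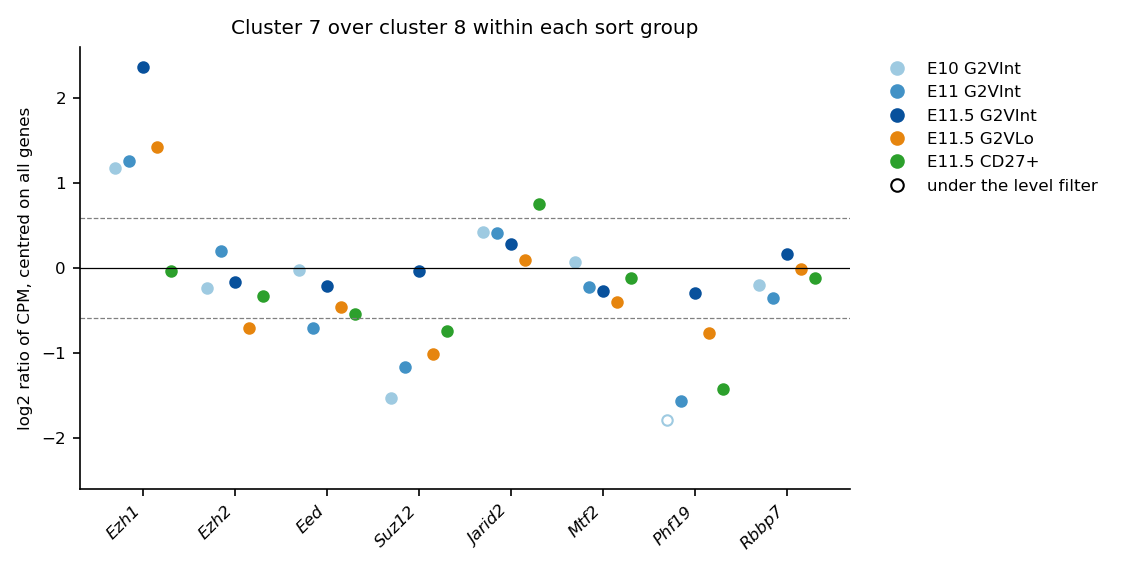
Centred log2 ratio of CPM of each PRC2 gene for cluster 7 over cluster 8 in the 5 groups, with 1.5-fold as dashed lines; the open circle, Phf19 at E10, is under the filter on low values. Ezh1 is at 1.18 to 2.36 in the Venus-gated groups and at -0.04 in CD27+ cells, and Suz12 is at or below -0.03 in all 5.

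The days of the G2VInt gate were compared over all cells and within HC1, and the members differed in shares near or below those of all measured genes. From E10 to E11, 1 of 8 members differed over all cells against 13.1% of measured genes and 1 of 8 within HC1 against 17.5%, in both cases Phf19. Its level was 4.23 CPM at E10 and 18.1 CPM at E11 over all cells (centred log2 ratio 2.09) and 4.52 and 22.8 CPM within HC1 (2.31), with a read in 11.1 and 28.6% of thinned HC1 cells and a per-cell median of 0 at both days. A single cell held 24.1% of the E11 HC1 reads. Phf19 was under 10 CPM at E10, so it passed the filter through E11 alone and had to differ. Ezh1 was 30.8 CPM at E10 and 43.8 CPM at E11 (0.50 over all cells, 0.49 within HC1), within the fold. From E11 to E11.5, 1 of 8 members differed over all cells against 17.5%, again Phf19 (18.1 and 9.12 CPM, -0.85, but -0.23 with only the lower library numbers), and 0 of 8 within HC1 against 8.12%. From E10 to E11.5, 1 of 7 measured members differed over all cells against 22.4%, Jarid2 (174.9 and 99.6 CPM, -0.72, but -0.49 with only the lower library numbers). Within HC1, 2 of 8 differed against 19.5%, Phf19 (4.52 and 17.5 CPM, 2.00) and Ezh1 (31.0 and 45.9 CPM, 0.61). That Ezh1 value was 0.57 without centring, within the fold. The later Phf19 differences were also bound to be counted, as Phf19 was under 10 CPM on 1 of the days each time. HC1 also differed in makeup, by the clustering of all cells. It had 11 cells in cluster 7 and 51 in cluster 8 at E10, and 63 and 35 at E11.5. Ezh1 was 54.8 CPM at E10 and 63.2 CPM at E11.5 in cluster 7, but 24.3 and 12.4 CPM in cluster 8. The part of this makeup in the HC1 values was not tested. Eed stood just inside the fold at -0.58 over all cells and -0.57 within HC1. The 3 pairs of days share their cells. Beside these, 10 of 10 endothelial genes were higher at E11.5 than at E10 over all cells and 5 of 10 within HC1, and their part was not tested. Days also differed in class makeup, with 14 EC of 87 cells at E10, 15 of 130 at E11 and 122 of 279 at E11.5. The share of male cells among those that could be sexed was 30.6, 80.8 and 49.8%, so the days also differed in the sex of the embryos sampled.

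Between the Venus gates at E11.5, 0 of 7 members differed over all cells against 8.93% of measured genes and 0 of 8 within HC1 against 10.4%. The gates differed within the endothelial class. In EC cells of cluster 1 of the clustering without CD27+ cells, 3 of 7 members differed against 14.4%. Ezh1 was higher in G2VInt, with a lowest, median and highest CPM of 0, 39.1 and 278 in 68 cells against 0, 12.1 and 155 in 60 G2VLo cells. Summed it was 52.3 against 24.3 CPM (centred log2 ratio 0.98), and 82.4 against 51.7% of thinned cells had a read. Ezh2 was lower there, at 87.2 against 131 CPM (-0.71, median 69.8 against 107.5), as was Suz12 at 15.3 against 21.4 CPM (-0.60). The Ezh1 share of both genes' reads was 37.5% in G2VInt and 15.6% in G2VLo. The Ezh2 ratio was -0.49 with only the upper library numbers. In this set G2VInt had lower values of 12 of 40 measured S phase genes (list median -0.44) and of 11 of 53 G2 and M phase genes, and higher values of none. Their part was not tested.

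In EC cells of cluster 2, 1 of 7 members differed against 7.57%, and it was again Ezh1 (41.7 against 23.9 CPM, 0.63), with medians of 26.4 and 11.3 CPM. Ezh2 was alike there (117 against 109.7 CPM, -0.08). In HC2 cells 2 of 8 differed against 27.6%, Jarid2 lower (50.1 against 84.2 CPM, -0.88) and Phf19 higher (11.9 against 6.18 CPM, 0.82) in G2VInt. The HC2 cells of the gates lay in different clusters of the clustering without CD27+ cells, with 8, 23 and 13 of 44 G2VInt cells and 23, 7 and 6 of 36 G2VLo cells in clusters 9, 10 and 11. Of the marker genes, 14 of 53 of the G2 and M phase and 7 of 9 measured of the endothelium were lower in G2VInt HC2 cells, and 7 of 8 erythroid genes were higher. Their part in the HC2 values was not tested.

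Ezh1 had a ratio of G2VInt over G2VLo of 0.46 over all cells, 0.44 in HC1, 0.98 and 0.63 in EC clusters 1 and 2, and 0.39 in HC2. Within the blood clusters of the clustering of all cells the order was not uniform. Ezh1 was 63.2 CPM in G2VInt and 50.8 CPM in G2VLo in cluster 7, but 12.4 and 18.98 CPM in cluster 8. HC1 cells of the gates also differed in makeup, with 63 cells in cluster 7 and 35 in cluster 8 in G2VInt against 57 and 104 in G2VLo. In HC1, 21 of 53 G2 and M phase genes were higher in G2VInt. The part of cluster makeup, cell cycle, depth and mitochondrial share in these ratios was not tested.

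CD27+ cells were compared with the other E11.5 groups over all cells and within cluster 8. Against G2VLo, 0 of 7 measured members differed over all cells against 19.9% of measured genes, and 0 of 8 within cluster 8 against 14.6%. The cell makeup differed, with macrophage genes summing to 399.6 CPM in CD27+, 2466 in G2VLo and 596 in G2VInt cells. Of 10 endothelial genes, 6 were lower in CD27+ than in G2VLo cells and 8 lower than in G2VInt cells. Against G2VInt, 2 of 7 differed over all cells against 23.5%, Ezh1 lower (20.7 against 41.1 CPM, -0.82) and Suz12 higher (35.6 against 25.4 CPM, 0.65). Within cluster 8, 3 of 8 differed against 23.6%, Ezh1 (21.4 against 12.4 CPM, 0.99), Eed (82.5 against 61.3 CPM, 0.63) and Suz12 (41.7 against 31.0 CPM, 0.63), all higher in CD27+ cells. Ezh1 thus had opposite signs over all cells and within cluster 8. The Ezh1 difference over all cells was -0.53, within the fold, with only the lower library numbers, and the Suz12 difference was 0.21 over all cells and -0.10 within cluster 8 with only the upper ones. The CD27+ cells as a whole held more transcripts of mesenchymal genes (231 CPM against 44.7 in G2VLo and 27.1 in G2VInt), which was not the case within cluster 8 (31.6 against 33.2 and 31.6 CPM). Within cluster 8 the macrophage genes summed to 121 CPM in CD27+ cells against 53.8 in G2VLo and 45.5 in G2VInt, and 3 of 4 measured were higher in CD27+ cells in both comparisons. There 12 and 7 of 41 S phase genes were lower in CD27+ cells than in G2VLo and G2VInt, and 10 of 53 G2 and M phase genes were lower and 2 higher than in G2VInt. The part of these in the member ratios was not tested. Both comparisons share the CD27+ cells.

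Rbbp7 is on the X chromosome, as is Kdm6a, a histone H3 lysine 27 demethylase known to escape X inactivation. Cells were sexed by reads of Xist or of 4 Y-linked genes. Rbbp7 was 393 CPM in male and 405 CPM in female cells at E10, 373 and 374 at E11, 338 and 323 at E11.5 G2VInt, and 314 and 341 at G2VLo. In CD27+ cells it was 399 CPM in 15 male and 336 CPM in 90 female cells. Neither sex was above the other in all 5 groups. Kdm6a was higher in female cells in each Venus-gated group (56.6 against 42.4, 48.7 against 38.4, 50.3 against 28.0 and 30.5 against 26.1 CPM) and not in CD27+ cells (48.0 against 56.9).

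The 7 other PRC2 genes on the list held no common direction. Of these, Rbbp4, the close relative of Rbbp7, was within 1.5-fold between HC1 and EC in E11.5 G2VInt (336 against 305 CPM) and Ezhip, an inhibitor of the complex, had 0 reads in all cells. Between HC1 and EC, 2 were higher and 2 lower of 5 measured at E10, 1 and 1 of 4 at E11, 0 and 2 of 5 at E11.5 G2VInt and 1 and 1 of 4 at G2VLo. The shares of all measured genes that differed were 46.3, 45.5, 38.5 and 38.5% in that order. Lcorl, which encodes an accessory subunit, was lower in HC1 in each group (17.4 against 46.4, 20.2 against 52.9, 15.0 against 27.2 and 17.5 against 38.3 CPM). Its relative Lcor was higher in HC1 at E10 (66.8 against 22.5 CPM) and E11 (78.9 against 34.8 CPM) and lower in HC2 than in HC1 in all 3 groups (-1.75, -1.66 and -0.77). Of the demethylases, Kdm6b was lower in HC1 than EC at E10 (53.7 against 96.4 CPM, -1.01) and E11 (59.2 against 84.6 CPM, -0.70) and higher in U1 than HC1 (59.0 against 33.0 CPM, 1.31).

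PRC1, the partner complex that binds the PRC2 mark, had members in both directions. Of its 23 listed genes, 4 were higher and 2 lower in HC1 than in EC of 16 measured at E10, 6 and 4 of 16 at E11, 6 and 3 of 17 at E11.5 G2VInt and 4 and 3 of 16 at G2VLo. Of all measured genes, 46.3, 45.5, 38.5 and 38.5% differed in these comparisons. Pcgf5, a subunit of a variant PRC1, was 46.4 against 8.89 CPM at E11.5 G2VInt (centred log2 ratio 2.20) and 40.2 against 13.1 at G2VLo (1.42). Cbx2, a reader of the mark, was lower in HC2 than HC1 in all 3 groups (-1.19, -1.53 and -1.38), as was Cbx6 (-1.48, -1.74 and -1.59). In U1 cells 8 of 16 PRC1 genes were lower than in HC1 and 3 higher (list median -0.59), and Cbx2 was 0.944 against 44.3 CPM. Of all measured genes, 56.4% differed between U1 and HC1.

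Genes known as PRC2 targets in other settings were mostly silent here, and few of the 20 listed passed the filter. Between HC1 and EC, 5 of 5 measured were lower in HC1 at E10, 5 of 5 at E11, 5 of 6 at E11.5 G2VInt and 2 of 4 at G2VLo, with none higher. Hoxd9 was 17.1, 17.9, 16.2 and 10.8 CPM in EC cells and at most 0.0591 CPM in HC1 cells. A gene that passed only through the EC side had to differ, so these counts describe the genes and do not support a direction. Cdkn1c, a brake on cell division and a known PRC2 target, was lower in HC2 than HC1 in all 3 groups (61.1 against 361, 92.6 against 417 and 11.1 against 259.6 CPM). It was higher in cluster 7 than in cluster 8 in all 5 groups (501 against 209, 473 against 205, 589 against 139, 349.9 against 182 and 479 against 254 CPM), in the same direction as Ezh1 in the 4 Venus-gated groups. Each of these comparisons measured 1 other target. For HC2 over HC1 that target was higher in all 3 groups. For cluster 7 over cluster 8 it was lower at E10, E11 and G2VLo, within the fold at E11.5 G2VInt and higher in CD27+ cells.

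Across the 14 sets of class and gate, the levels of the members did not form 1 group. As a description over sets that share library and depth within a gate, Pearson's r of log2(CPM + 1) was 0.82 for Ezh2 and Mtf2, 0.75 for Jarid2 and Mtf2, 0.72 for Mtf2 and Phf19, -0.01 for Ezh1 and Ezh2 and -0.53 for Ezh1 and Suz12. With the summed level of the S phase genes r was 0.87 for Rbbp7, 0.74 for Ezh2, 0.64 for Mtf2, 0.51 for Suz12, 0.47 for Eed, 0.45 for Jarid2, 0.35 for Phf19 and -0.21 for Ezh1. Of 11075 genes, those most like Ezh1 in this measure were Vps9d1 (0.89), Fam214b (0.88), Tmem198b (0.88), Mllt6 (0.87) and Pias3 (0.87). Those most like Ezh2 were Srbd1 (0.94), Drg1, Srsf10, Ppp1cb and Cecr2 (0.92 each).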

How the data were processed

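Messenger RNA was measured in 1087 single cells in 5 groups given by day and sort gate in the labels. The values are raw read counts per Ensembl gene, deposited by the authors as 1 table. Reads were counted with HTSeq 0.6.0 against GRCm38, by the submitters' processing notes. The aligner, annotation release, strand setting and read filters are not given in the sources used here. Library preparation was by Nextera XT and sequencing by HiSeq 2500, per the labels.

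Symbols, coordinates and exon lengths came from GENCODE M21 (GRCm38), which named 45229 of 46078 genes; the other 849 held 0.0859% of counts. No pair of columns was identical (0), and 0 columns lacked a sample. Counts were summed over the cells of a set and expressed as CPM, with exact Poisson intervals (95%) for levels and exact Clopper-Pearson intervals (95%) for shares. A count of 0 allows up to 3 counts. For shares of cells, each cell was thinned to 100000 reads. Genes with at least 10 CPM and a read in at least 5% of thinned cells in the same set of a comparison entered it, and ratios were centred on their median log2 ratio. A difference was counted from 1.5-fold. Sets under 10 cells entered no ratio, and the sets used held depths as given in the report. Correlations used log2(CPM + 1). A cell was sexed with at least 5 thinned reads of Xist or of the Y-linked genes, whichever had more. No test was run and no p-value (0) was computed, because each group is 1 sample. Ratio steps were tested on simulated data.

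The members and the 17 gene lists (254 entries, all matched) were chosen with earlier results of these data known. By the rule for named genes, all members are described, other PRC2 genes and demethylases may be named, other lists give up to 4 members with the largest ratios, and the 5 genes most like Ezh1 and Ezh2 are named. Cdkn1c and Hoxd9 of the known targets, Pcgf5, Cbx2 and Cbx6 of PRC1 fall under it. Alternatives were no centring, edgeR 4.0.16 TMM and DESeq2 1.42.0 median-of-ratios factors (scaling only), mean per-cell CPM, thinned counts, no filter, either part of the library numbers, a 2-fold criterion, and leaving out the cell with the most reads. The other clustering was used for the Ezh1 to Ezh2 read ratio and not for the member differences. U2 cells and sets under 10 cells were left out of ratios. Python 3.11.15, numpy 2.4.6, pandas 2.3.3, scipy 1.17.1, matplotlib 3.10.9 and R 4.3.3 were used.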

Additional observations from a re-analysis of the deposited data

Results flagged for a closer look

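Ezh1 differed in direction between groups under the same comparison in 2 places, and neither difference between groups was tested. For HC1 over EC the centred log2 ratio of Ezh1 in the G2VInt gate was -0.65 for E10, -0.79 for E11 and -0.24 for E11.5, and in the E11.5 G2VLo gate it was 0.16. The G2VLo cells were also the shallower ones, with a median of 539090 reads against 1892779 to 2212898 in the G2VInt groups, and the part of depth was not tested. For cluster 7 over cluster 8 the ratio of Ezh1 was 1.18 at E10, 1.26 at E11, 2.36 at E11.5 G2VInt and 1.42 at E11.5 G2VLo, and -0.04 in CD27+ cells. The CD27+ cells of cluster 7 numbered 16, and 1 of them held 48.7% of their Ezh1 reads. Without the cell with most Ezh1 reads on each side the CD27+ ratio was -0.80.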

How the results depend on the processing

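Of 51 member differences past 1.5-fold, 44 stayed past it without centring, 48 with TMM and 48 with median-of-ratios scaling, 46 with mean per-cell CPM, 48 with thinned cells, 44 with no filter, 41 with only the lower library numbers, 41 with only the upper, 23 at 2-fold, and 49 without the top cell of each set. Direction was kept in all 51 except for the lower (49) and the upper (50) numbers. Ezh1 for HC1 over EC at E11 was 0.36 and Phf19 for cluster 7 over 8 at G2VLo was 0.32 with the lower numbers, and Suz12 for CD27+ over G2VInt in cluster 8 was -0.10 with the upper. For HC1 over EC 9 of 32 values were past the fold, and 3 at 2-fold. For HC2 over HC1 these were 7 of 24, and 11 with the lower numbers. Between days they were 6 of 48, with 11 in thinned cells, 10 and 13 with the lower and upper numbers and 3 at 2-fold. Between gates they were 6 of 40, and 0 at 2-fold. For CD27+ cells they were 5 of 32, with 3 without centring, 3 with mean CPM, 3 with no filter, 8 with the lower numbers and 0 at 2-fold. For clusters 7 and 8 they were 14 of 40, and 9 at 2-fold. A stricter criterion passes fewer genes by construction, and for the other settings the cause was not tested. The Ezh1 to Ezh2 read ratio at E11.5 G2VInt was 0.472 in EC (0.460 as mean CPM, 0.443 with the other clustering, 0.449 without the top Ezh1 cell), 0.357 in HC1 (0.372 with the other clustering, 0.336 without the top cell) and 0.114 in HC2 (0.128 as mean CPM, 0.125 thinned, 0.0562 and 0.171 with the lower and upper numbers, 0.0712 without the top cell). At G2VLo it was 0.206 in EC (0.215 with the upper numbers, 0.197 without the top cell), 0.230 in HC1 (0.251 as mean CPM, 0.245 thinned, 0.248 and 0.200 with the lower and upper numbers, 0.211 with the other clustering, 0.208 without the top cell) and 0.0740 in HC2 (0.107 thinned, 0.104 and 0.0392 with the lower and upper numbers, 0.0571 with the other clustering, 0.0598 without the top cell). The comparison of clusters 7 and 8 and the settings without a top cell were chosen after seeing the data. No paired analysis was possible because each group is 1 sample and cells carry no shared number. Intervals cover counting error only, and with 1 sample per group the spread between samples is unknown.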
